A study of Mus musculus with 6 samples.

Results

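The genes described here are 39 members of TGF-beta and BMP signalling, chosen by gene symbol in the deposited expression table. They make up 39 of the 28789 genes that the table lists. The table was made from TCMK1, a line of renal tubular epithelial cells of the mouse. It holds 3 libraries of cells with YOD1 overexpression and 3 control libraries, and both groups received angiotensin II (Ang II), and no group without it was used here. YOD1 is a deubiquitinase of the OTU family. The sources used here do not state how YOD1 was introduced, whether the controls had an empty vector or whether the cells were 1 clone. The series describes its aim as a search for pathways that YOD1 regulates in these cells.

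TGF-beta and BMP ligands are secreted dimers that bring together type I and type II receptor kinases. TGF-beta and activin receptors phosphorylate Smad2 and Smad3, BMP receptors phosphorylate Smad1, Smad5 and Smad9, and either set enters the nucleus with Smad4. In the kidney TGF-beta is known as a driver of fibrosis, whereas BMP7 is known for counteracting it and for its part in nephron development. The Id genes, which encode helix-loop-helix proteins that block other transcription factors, are textbook BMP targets.

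The promoters of Id3, Smad6 and Id2 are shown because Id3 and Smad6 carried some of the larger fold changes among the members and Id2 is the family member set beside them. Each run holds the 250 bases before the RefSeq start in build GRCm38.p6, 5′ to 3′ on the gene's strand. Capitals mark GGCGCC, a sequence bound by BMP Smads, and CAGAC or its complement GTCTG, the core bound by Smad3 and Smad4.
Id3 (chr4:136143572-136143821, plus strand): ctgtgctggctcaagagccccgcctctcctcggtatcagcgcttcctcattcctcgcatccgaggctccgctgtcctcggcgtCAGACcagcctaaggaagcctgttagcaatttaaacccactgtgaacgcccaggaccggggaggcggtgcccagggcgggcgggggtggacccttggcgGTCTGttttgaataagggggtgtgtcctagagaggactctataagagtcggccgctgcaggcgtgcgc
Smad6 (chr9:64022060-64022309, minus strand): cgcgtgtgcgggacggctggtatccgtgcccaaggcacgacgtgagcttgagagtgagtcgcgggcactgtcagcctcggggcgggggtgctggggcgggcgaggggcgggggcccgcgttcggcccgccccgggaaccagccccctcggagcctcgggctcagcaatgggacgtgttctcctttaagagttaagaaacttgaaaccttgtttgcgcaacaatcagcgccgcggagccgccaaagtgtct
Id2 (chr12:25096093-25096342, minus strand): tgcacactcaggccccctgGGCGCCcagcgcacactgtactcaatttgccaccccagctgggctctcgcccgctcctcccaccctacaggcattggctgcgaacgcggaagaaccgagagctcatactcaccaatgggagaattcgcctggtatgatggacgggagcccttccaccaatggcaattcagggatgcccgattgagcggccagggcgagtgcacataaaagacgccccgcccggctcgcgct

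Id3 holds 2 matches of CAGAC, 1 on each strand, starting at positions -167 and -68, where -1 is the base before the start. Id2 holds 1 match of GGCGCC, starting at -231, and the window of Smad6 holds 0 matches of either motif. GGCGCC reads the same on both strands and occurred in 9.59% of all 32851 windows of that length, and CAGAC on either strand occurred in 42.2%. None of the 3 printed windows holds both motifs. Of the 39 members, 27 had an entry in the RefSeq table, with 37 windows in all. GGCGCC was in 12 of the 37 (32.4%) and CAGAC in 17 (45.9%), and some windows of the same gene overlap. By gene, GGCGCC was in 11 of the 27 and CAGAC in 14. The windows of members were not matched to all windows for GC content. Id1 had no entry. These are matches of letters and do not show binding.

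Levels are in FPKM, fragments scaled to transcript length and to the mapped fragments of the library, as the authors deposited them. A gene was tested when 3 or more of the 6 libraries had 1 FPKM or more, which 11483 genes and 26 of the 39 members did. Tests used limma on log2(FPKM + 1), two-sided, with Benjamini-Hochberg adjustment over all 11483 genes. Fold changes are YOD1 over control on that scale, which understates changes of low genes, and a call means an adjusted p under 0.05.

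None of the 26 tested members passed the test, with adjusted p from 0.116 to 0.977 by limma. Over all genes 55 of 11483 passed (0.479%), of which 51 were higher (0.444%) and 4 lower (0.0348%). The split was 26 higher and 7 lower (0.29% of 11386 genes together) after correction for transcript length and GC content. At an unadjusted p under 0.05 there were 8 members, against 20.9% of all tested genes. Of these, 4 members lay above 0, against 7.87% of all tested genes, and 4 lay below, against 13.0%. Groups did not overlap in 8 tested members, against 28.9% of all tested genes. In 4 of them the YOD1 libraries were higher, against 9.77% of all tested genes, and in 4 lower, against 19.1%. The median log2 fold change of the tested members was -0.09, beside -0.10 over all tested genes. It was above 0 in 7 of the tested members (26.9%), against 36.4% of all tested genes. The members at the ends of the range were Id1 (1.52) and Smad3 (-0.49). Of the 39 members, Id3 alone in the authors' deposited table had a q-value under 0.05 (0.048), that is 1 member, against 1.97% of all genes, and the table marks no member as significant.

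**Figure D1:**
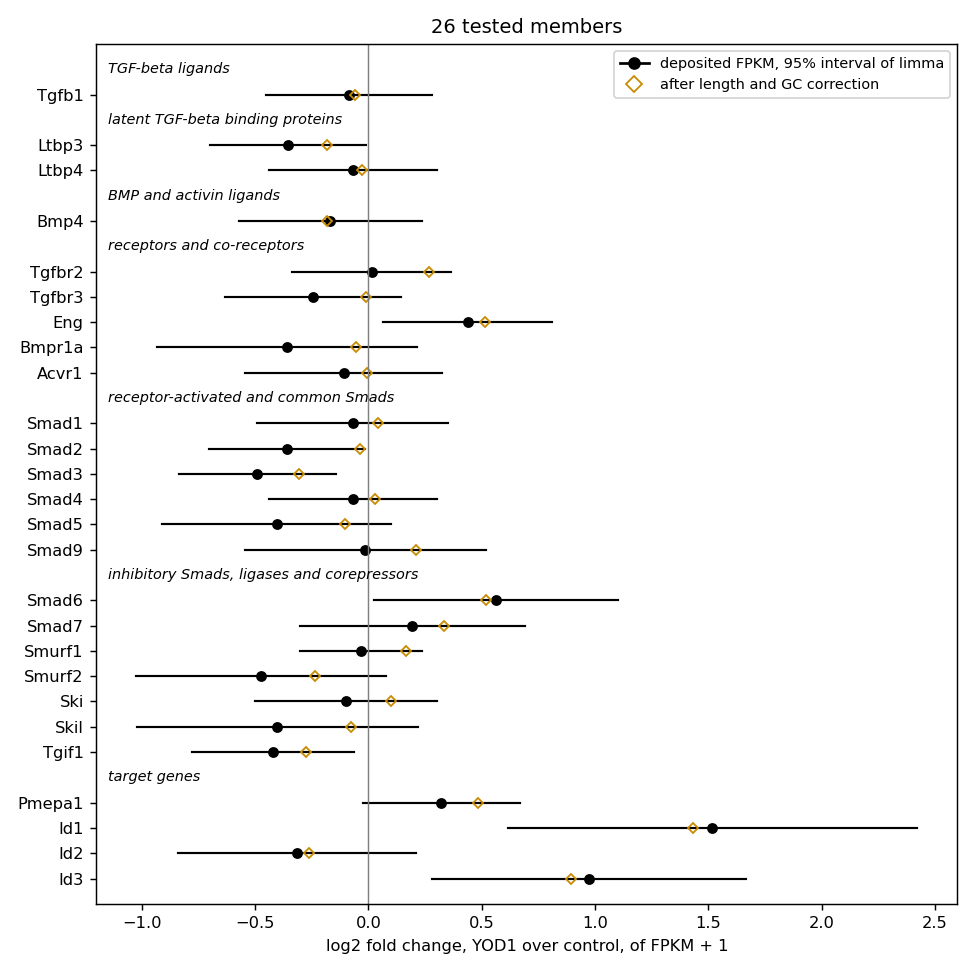
Log2 fold change (YOD1 over control, FPKM + 1) of the 26 tested members by role, with the 95% interval of limma as bars and the value after length and GC correction as open diamonds. Id1 and Id3 lie farthest to the right at 1.52 and 0.97, and the 6 receptor-activated and common Smads lie left of 0, with 3 of them (Smad1, Smad4 and Smad9) right of 0 after correction. Before correction, 36.4% of all tested genes were above 0.

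Facts of the libraries bear on these values. Nothing in the labels states separate cultures for the replicates, so p-values cover only the spread among these 6 samples, and that spread may be technical. Read depth is unknown, but relative to control library 1 it was estimated from low values at 0.804 to 0.844 for YOD1 libraries and at 0.977 and 1.02 for the other controls. The 18S rRNA-related gene Rn18s-rs5 took 2.17% to 3.90% of the FPKM sum in YOD1 libraries and 0.421% to 0.733% in controls. Yod1 had 1.73, 7.56 and 1.86 FPKM in YOD1 libraries 1, 2 and 3, against 0.842, 0.757 and 0.684 FPKM in control libraries 1, 2 and 3. Its groups did not overlap, which was bound to hold for a tested gene with every control under 1 FPKM. The YOD1 libraries alone carried it past the filter. Its log2 fold change of 1.21 (SE 0.37) did not pass (limma adjusted p = 0.141), and it was 0.67 without YOD1 library 2. In the authors' deposited table Yod1 has a ratio of 4.88 and a q-value of 0.031 and is marked as significant. Of 10 tubular epithelial markers, 9 were tested, with a summed level of 762 to 998 FPKM in YOD1 libraries and 684 to 794 FPKM in controls, mostly Krt18, and Lhx1 was near 0. Krt8 and Krt18 lay above 0 (log2 fold changes 0.35 and 0.36) and the other 7 tested markers below, 4 of them at an unadjusted p under 0.05, with a median of -0.18 over the 9. The 8 fibroblast markers, 4 of them tested, summed to 6.51 to 14.2 FPKM in YOD1 libraries and 12.7 to 15.6 FPKM in controls. The 6 leukocyte markers, 2 of them tested, summed to 17.3 to 19.8 FPKM in YOD1 libraries and 17.8 to 27.4 FPKM in controls. Among the leukocyte markers, Cd3e and Ptprc stayed under 0.1 FPKM in every library. The part of these differences in the results was not tested.

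Among the TGF-beta ligands, Tgfb1 was by far the most abundant per length. Tgfb1 (ENSMUSG00000002603) had 12.0, 13.9 and 16.0 FPKM in YOD1 libraries 1, 2 and 3, against 12.5, 17.4 and 15.0 FPKM in control libraries 1, 2 and 3. The groups overlapped, and the log2 fold change was -0.08 with a 95% interval of -0.45 to 0.28 (limma adjusted p = 0.78). Tgfb3 averaged 0.946 ± 0.10 FPKM in YOD1 libraries and 0.883 ± 0.299 FPKM in controls (SD, n = 3 each). Tgfb2 averaged 0.321 ± 0.074 FPKM in YOD1 libraries and 0.300 ± 0.091 FPKM in controls (SD, n = 3 each). In each group every library thus had more Tgfb1 than Tgfb3 and more Tgfb3 than Tgfb2, and Tgfb2 and Tgfb3 were under the filter.

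Latent TGF-beta binding proteins hold secreted TGF-beta in the matrix in an inactive complex. Ltbp3 had 16.7, 17.8 and 20.9 FPKM in YOD1 libraries, against 20.0, 27.4 and 24.4 FPKM in controls. YOD1 library 3 overlapped control library 1, and the log2 fold change was -0.35 (SE 0.15, limma adjusted p = 0.232). Ltbp4 had 3.68, 4.36 and 4.57 FPKM in YOD1 libraries, against 3.65, 4.96 and 4.80 FPKM in controls, with a log2 fold change of -0.07 (95% interval -0.44 to 0.30). Ltbp2 was under the filter, with 0.673, 0.641 and 0.713 FPKM in YOD1 libraries, against 0.206, 0.288 and 0.537 FPKM in controls. Its groups did not overlap, and in limma without a filter on low values, where 0 of 28789 genes passed (0.0%) and 11.9% had an unadjusted p under 0.05, its adjusted p was 0.361. Ltbp2 was chosen after its values were seen. Ltbp1 lay between 0.145 and 0.293 FPKM in YOD1 libraries and between 0.0971 and 0.303 FPKM in controls.

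Of the BMP and activin ligands, Bmp4, which acts in kidney and limb development, was the one that could be tested. Bmp4 had 4.09, 5.13 and 3.48 FPKM in YOD1 libraries, against 5.29, 3.96 and 5.36 FPKM in controls, and the groups overlapped (log2 fold change -0.17, 95% interval -0.57 to 0.24, limma adjusted p = 0.603). Bmp7 averaged 0.737 ± 0.162 FPKM in YOD1 libraries and 0.776 ± 0.291 FPKM in controls (SD, n = 3 each). Inhba, the activin A subunit gene, lay at 0.0941 to 0.192 FPKM in YOD1 libraries and at 0.141 to 0.230 FPKM in controls. Bmp2 was listed at 0 in 4 of 6 libraries, with 0.0818 FPKM in YOD1 library 2 and 0.0237 FPKM in control library 2. The antagonists were low as well. Grem1, which encodes the BMP antagonist gremlin, lay at 0 to 0.0782 FPKM in YOD1 libraries and 0.0210 to 0.117 FPKM in controls. Fst, which encodes the activin antagonist follistatin, lay at 0.104 to 0.212 FPKM in YOD1 libraries and 0.0956 to 0.203 FPKM in controls.

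**Figure D2:**
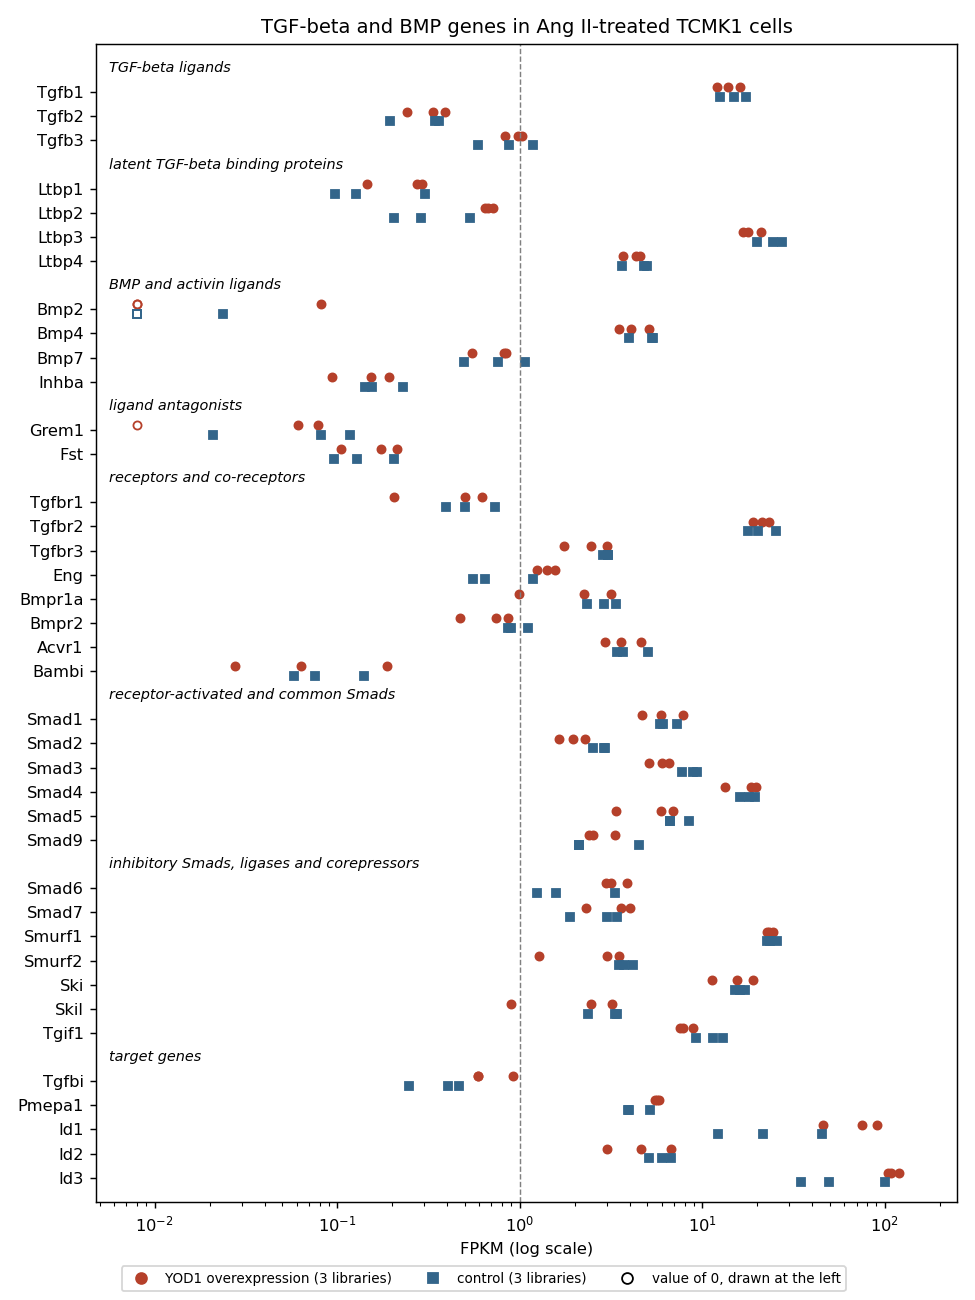
FPKM (log scale) of all 39 members in each library, ordered by role, with YOD1 libraries as circles above and controls as squares below. The dashed line marks 1 FPKM, and open symbols are values of 0 drawn at the left edge. Id3 and Id1 reach the highest levels, at up to 119 and 91.0 FPKM, and the ligands other than Tgfb1 and Bmp4, with both antagonists, lie near or left of the line.

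Levels of the member receptors spanned a wide range, with Tgfbr2 the highest among them in every library. Tgfbr2, the type II TGF-beta receptor, averaged 21.2 ± 2.21 FPKM in YOD1 libraries and 21.1 ± 3.80 FPKM in controls (SD, n = 3 each), which gave a log2 fold change of 0.01 (95% interval -0.34 to 0.37). Its type I partner Tgfbr1 averaged 0.442 ± 0.214 FPKM in YOD1 libraries and 0.541 ± 0.17 FPKM in controls (SD, n = 3 each). Every library had more Tgfbr2 than Tgfbr1 per length. The co-receptor gene Tgfbr3, which encodes betaglycan, had 2.45, 3.00 and 1.75 FPKM in YOD1 libraries, against 3.05, 3.05 and 2.84 FPKM in controls (log2 fold change -0.24, limma adjusted p = 0.419). YOD1 library 2 lay among the controls.

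Among BMP type I receptors, Bmpr1a had 2.24, 3.16 and 0.991 FPKM in YOD1 libraries, against 3.35, 2.33 and 2.91 FPKM in controls. YOD1 library 3 stood below the others, and the log2 fold change of -0.36 (limma adjusted p = 0.42) was -0.05 after length and GC correction and -0.065 without that library. Acvr1, another BMP type I receptor, had 3.57, 4.64 and 2.91 FPKM in YOD1 libraries, against 3.70, 3.42 and 5.06 FPKM in controls (log2 fold change -0.11, limma adjusted p = 0.764). Bmpr2, the BMP type II receptor, averaged 0.695 ± 0.203 FPKM in YOD1 libraries and 0.954 ± 0.134 FPKM in controls (SD, n = 3 each) and was not tested. Bambi, a decoy receptor without kinase activity, was at 0.0277 to 0.186 FPKM in YOD1 libraries and 0.0580 to 0.140 FPKM in controls.

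Eng, which encodes the endothelial co-receptor endoglin, had 1.42, 1.24 and 1.57 FPKM in YOD1 libraries, against 0.557, 0.647 and 1.18 FPKM in controls. The groups did not overlap, and control library 3 came just under YOD1 library 2. The log2 fold change was 0.44 with an SE of 0.17 and did not pass (limma adjusted p = 0.192). Eng reached 1 FPKM in all 3 YOD1 libraries and in 1 control, so the YOD1 libraries alone carried it past the filter. The summed endothelial markers, at 1.47 to 2.62 FPKM in YOD1 libraries and 0.888 to 1.59 FPKM in controls, also reached higher in YOD1 libraries but overlapped, and each of the 6 stayed under 1 FPKM in every library. In the authors' deposited table the ratio of YOD1 over control was above 1 for each of the 6, from 1.38 (Tek) to 1.78 (Emcn). The part of endothelial cells in the value of Eng was not tested, and in bulk RNA more cells of a type and more RNA per cell cannot be told apart.

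Smad2 and Smad3, the receptor-activated Smads of the TGF-beta branch, were lower in every YOD1 library than in every control, without passing the test. The same order held in 19.1% of all tested genes. Smad3 (ENSMUSG00000032402) had 6.58, 5.99 and 5.12 FPKM in YOD1 libraries 1, 2 and 3, against 7.72, 9.38 and 8.92 FPKM in control libraries 1, 2 and 3. The groups did not overlap, and Smad3 averaged 5.90 ± 0.73 FPKM in YOD1 libraries and 8.67 ± 0.86 FPKM in controls (SD, n = 3 each). Its log2 fold change was -0.49 (SE 0.15, limma adjusted p = 0.144) and was -0.31 after length and GC correction. Smad2 had 1.96, 2.26 and 1.64 FPKM in YOD1 libraries, against 2.90, 2.52 and 2.92 FPKM in controls. Its groups did not overlap either, but its log2 fold change of -0.36 (SE 0.15, limma adjusted p = 0.228) was -0.04 after length and GC correction, with a transcript of 8089 bases.

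The BMP branch and the shared Smad showed overlapping groups. Smad5 had 5.97, 6.87 and 3.37 FPKM in YOD1 libraries, against 6.67, 6.63 and 8.51 FPKM in controls (log2 fold change -0.41, limma adjusted p = 0.315, and -0.10 after length and GC correction). YOD1 library 3 was the low one. Smad4 had 19.6, 18.6 and 13.4 FPKM in YOD1 libraries, against 18.0, 16.1 and 19.5 FPKM in controls, with a log2 fold change of -0.07 (95% interval -0.44 to 0.30). It was the most abundant Smad per length in every library. Smad1 averaged 6.14 ± 1.58 FPKM in YOD1 libraries and 6.40 ± 0.74 FPKM in controls, and Smad9 averaged 2.75 ± 0.50 FPKM in YOD1 libraries and 2.91 ± 1.39 FPKM in controls (SD, n = 3 each). Smad9 had its highest value, 4.51 FPKM, in control library 3, against 2.11 and 2.10 FPKM in control libraries 1 and 2.

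YOD1 library 3 held the lowest value of the 6 libraries in 14 of the 26 tested members (53.8%), against 42.5% of all tested genes. These 14 were Smad1, Smad2, Smad3, Smad4 and Smad5, Smurf1 and Smurf2, Ski and Skil, the receptor or co-receptor genes Tgfbr3, Bmpr1a and Acvr1, and Bmp4 and Id2. Tested members had a median transcript length of 4814 bases, against 3018.5 bases for all tested genes. Leaving out YOD1 library 3 gave log2 fold changes of -0.06 for Bmp4, -0.10 for Tgfbr3 and -0.15 for Smad5, against -0.17, -0.24 and -0.41 with all 6 libraries. Smad3 and Smad2 moved less, to -0.41 and -0.28 without that library, against -0.49 and -0.36 with all 6. Acvr1 (0.017), Smad1 (0.087), Smad4 (0.093) and Ski (0.083) turned above 0 without it, and the rest of the 14 stayed below 0. After length and GC correction the median log2 fold change of the tested members was -0.01, beside -0.02 for all genes.

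Of the genes that restrain the pathway, Smad6, the inhibitory Smad that BMP signalling induces, had 3.89, 3.15 and 2.99 FPKM in YOD1 libraries 1, 2 and 3, against 1.25, 1.57 and 3.33 FPKM in control libraries 1, 2 and 3. Control library 3 lay among the YOD1 libraries, and the other 2 controls lay below them. The log2 fold change was 0.56 (SE 0.24, limma adjusted p = 0.226), and it was 0.85 without control library 3 (limma adjusted p = 0.0655) and 0.37 without control library 1 (limma adjusted p = 0.513). Smad7, the inhibitory Smad that TGF-beta induces, averaged 3.31 ± 0.91 FPKM in YOD1 libraries and 2.77 ± 0.79 FPKM in controls (SD, n = 3 each), which gave a log2 fold change of 0.19 (95% interval -0.30 to 0.69) that was 0.011 without control library 2 and 0.38 without YOD1 library 3.

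Tgif1, a homeodomain corepressor of Smad2 and Smad3, had 8.85, 7.52 and 7.87 FPKM in YOD1 libraries, against 11.4, 13.1 and 9.24 FPKM in controls. The groups did not overlap, and the log2 fold change was -0.42 (SE 0.16, limma adjusted p = 0.191). Smurf2, a ubiquitin ligase for Smads and receptors, had 3.51, 3.02 and 1.27 FPKM in YOD1 libraries, against 4.17, 3.51 and 3.72 FPKM in controls. YOD1 library 1 and control library 2 were nearly level, and the log2 fold change was -0.48 (SE 0.25, limma adjusted p = 0.289), or -0.17 without YOD1 library 3. Its relative Smurf1 averaged 23.5 ± 0.99 FPKM in YOD1 libraries and 24.0 ± 1.51 FPKM in controls (SD, n = 3 each), with the narrowest interval of the members (log2 fold change -0.03, 95% interval -0.30 to 0.24). The corepressor gene Skil, which TGF-beta also induces, had 2.47, 3.21 and 0.897 FPKM in YOD1 libraries, against 3.41, 2.35 and 3.31 FPKM in controls (log2 fold change -0.40, limma adjusted p = 0.406), and it was at -0.065 without YOD1 library 3. Ski averaged 15.2 ± 3.78 FPKM in YOD1 libraries and 16.1 ± 0.99 FPKM in controls (SD, n = 3 each).

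The target genes held the 2 largest log2 fold changes, those of Id1 and Id3. Id1 (ENSMUSG00000042745) had 91.0, 75.0 and 45.6 FPKM in YOD1 libraries 1, 2 and 3, against 21.6, 12.3 and 45.2 FPKM in control libraries 1, 2 and 3. The groups touched without overlapping, since YOD1 library 3 and control library 3 were nearly level. Id1 averaged 70.5 ± 23.0 FPKM in YOD1 libraries and 26.4 ± 17.0 FPKM in controls (SD, n = 3 each), which gave a log2 fold change of 1.52 (SE 0.40, limma adjusted p = 0.116).

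Id3 (ENSMUSG00000007872) had 119, 105 and 108 FPKM in YOD1 libraries 1, 2 and 3, against 49.3, 34.8 and 101 FPKM in control libraries 1, 2 and 3. Control library 3 again stood next to the YOD1 libraries and apart from the other 2 controls. The log2 fold change was 0.97 (SE 0.31, limma adjusted p = 0.147). Without control library 3, limma called Id1 (log2 fold change 1.99, adjusted p = 0.0266) and Id3 (1.39, adjusted p = 0.013), while it called 2.11% of all genes in either direction and 1.26% as higher. Over the other alternatives the adjusted p of Id1 lay between 0.0738 and 0.348, and that of Id3 between 0.118 and 0.398. Without control library 2 the log2 fold changes were 1.09 for Id1 and 0.64 for Id3.

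Id2, the third Id gene among the members, did not share this order. Id2 had 6.73, 4.61 and 2.99 FPKM in YOD1 libraries, against 6.02, 5.11 and 6.76 FPKM in controls, with overlapping groups (log2 fold change -0.31, 95% interval -0.84 to 0.21, limma adjusted p = 0.441). Leaving out YOD1 library 3 gave -0.074, and leaving out YOD1 library 1 gave -0.55. Id1 and Id3 transcripts are short, at 1160 and 1278 bases, and after length and GC correction their log2 fold changes were 1.43 and 0.89. The rRNA-related share was higher in every YOD1 library than in every control, so it cannot be told apart from the group here. Its part in these values was not tested.

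**Figure D3:**
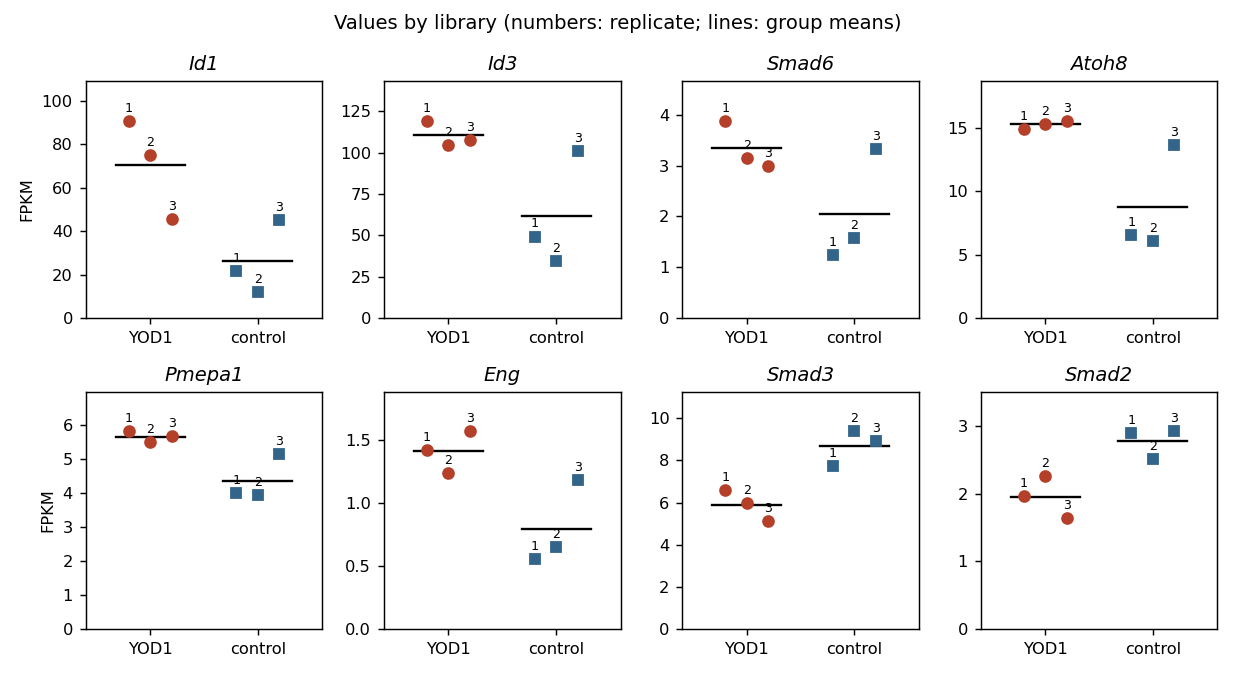
FPKM of 7 members and of Atoh8 in each library, with YOD1 at the left and control at the right, replicate numbers beside the points and lines at group means. Control library 3 lies near the YOD1 libraries for Id1, Id3, Smad6, Atoh8, Pmepa1 and Eng, and with the other controls for Smad3 and Smad2.

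Pmepa1, a TGF-beta induced gene whose product limits Smad signalling, had 5.82, 5.50 and 5.67 FPKM in YOD1 libraries, against 3.99, 3.94 and 5.15 FPKM in controls. The groups did not overlap and the YOD1 libraries lay close together, but the log2 fold change of 0.32 (SE 0.15) did not pass (limma adjusted p = 0.264). After length and GC correction it was 0.49 (limma adjusted p = 0.0946). Tgfbi, a matrix protein gene named for its induction by TGF-beta, had 0.591, 0.587 and 0.919 FPKM in YOD1 libraries, against 0.248, 0.403 and 0.464 FPKM in controls. Its groups did not overlap, and it was under the filter in all 6 libraries, with a limma adjusted p of 0.399 when no filter was used. Like Ltbp2, Tgfbi was chosen after its values were seen. The share without overlap among genes under the filter was not computed.

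**Figure D4:**
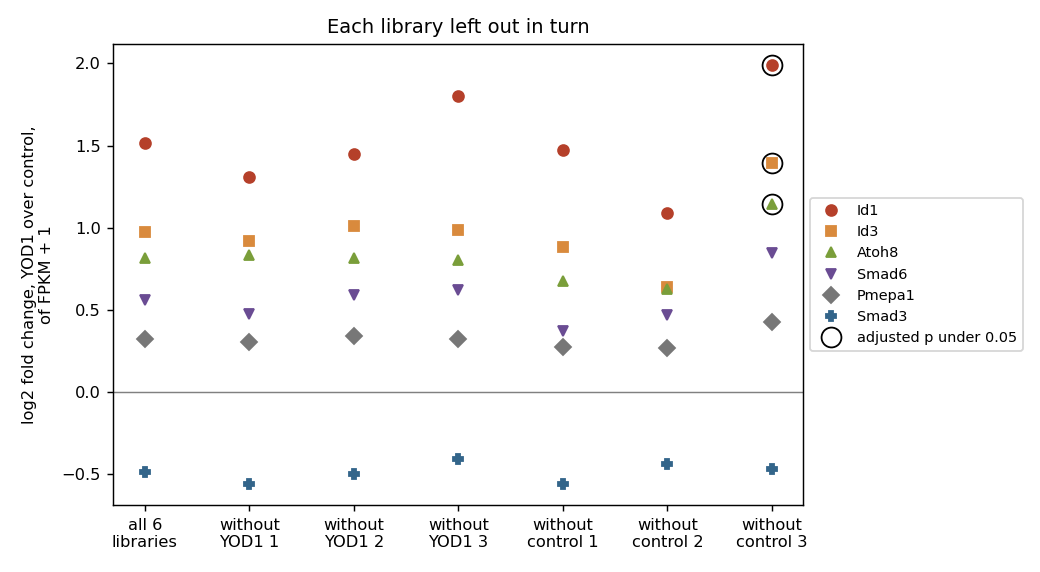
Log2 fold change (YOD1 over control, FPKM + 1) of 5 members and of Atoh8 with all 6 libraries and with each library left out, with rings where the adjusted p was under 0.05. The rings appear for Id1, Id3 and Atoh8 without control library 3, and none of the genes drawn changes sign. Not drawn are the 9 of the 26 tested members whose sign turned in at least 1 alternative setting.

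Other genes of the pathway were read from 6 lists holding 133 genes, of which 129 were in the table and 80 were tested. None of the 80 passed over all genes (limma), and 15 had an unadjusted p under 0.05, against 20.9% of all tested genes. Of the 129, the authors' deposited table gives 4 a q-value under 0.05, against 1.97% of all genes, namely Junb (2.9e-05), Gdf15 (0.000205), Ccn2 (0.0281) and Atoh8 (0.0465), and none of the 4 is marked as significant. The median log2 fold change of the 80 was -0.09, beside -0.10 over all tested genes. Of the 80, 31 were above 0 and 49 below, against 36.4% of all tested genes above 0.

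BMP induced genes outside the members included Atoh8, a helix-loop-helix factor, which had 14.9, 15.3 and 15.6 FPKM in YOD1 libraries 1, 2 and 3, against 6.58, 6.09 and 13.6 FPKM in control libraries 1, 2 and 3. As for Id3, control library 3 lay next to the YOD1 libraries and apart from the other controls. The log2 fold change was 0.82 (limma adjusted p = 0.137), and it was 1.15 without control library 3 (limma adjusted p = 0.0132), 0.67 without control library 1 and 0.63 without control library 2 (limma adjusted p = 0.345 and 0.39). Of the 5 tested genes in that list, 3 were above and 2 below 0, with Klf2, a transcription factor gene, at -0.55 and Jag1, a Notch ligand gene, at 0.29 (limma adjusted p = 0.184 and 0.325).

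TGF-beta induced genes outside the members lay on both sides of 0. Of 26 tested, 14 were above and 12 below 0, against 36.4% of all tested genes above 0, and their median was 0.03. By limma 0 were called, while 5 had an unadjusted p under 0.05. Junb, an AP-1 subunit gene, had 50.3, 55.8 and 32.7 FPKM in YOD1 libraries, against 25.8, 21.3 and 22.3 FPKM in controls. The groups stood well apart, and the log2 fold change of 0.94 missed the threshold (limma adjusted p = 0.0753), but it passed without YOD1 library 3 (1.16, adjusted p = 0.00488), where 1.15% of all genes were called and 0.932% were higher. With any other library left out its adjusted p lay between 0.0915 and 0.253. Ccn2, the connective tissue growth factor gene, had 16.3, 16.0 and 16.7 FPKM in YOD1 libraries, against 12.5, 10.6 and 9.75 FPKM in controls (log2 fold change 0.54, limma adjusted p = 0.111). Snai1, a repressor of epithelial genes, had 6.24, 6.84 and 7.12 FPKM in YOD1 libraries, against 3.94, 4.29 and 5.09 FPKM in controls (log2 fold change 0.51, limma adjusted p = 0.133). Without control library 3 limma also called Tagln, a smooth muscle actin-binding protein gene (1.12), and Bhlhe40, a transcriptional repressor gene (-0.90), which were chosen after their values were seen. Tagln had 3.55, 2.68 and 3.48 FPKM in YOD1 libraries, against 0.994, 0.883 and 2.95 FPKM in controls, and Bhlhe40 had 17.9, 18.7 and 16.1 FPKM in YOD1 libraries, against 33.2, 34.3 and 15.8 FPKM in controls. For each of them control library 3 stood apart from the other 2 controls. With control library 3 left out, the YOD1 libraries alone carried Tagln past the filter of 1 FPKM.

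The other lists were led by genes that also missed the threshold. Among 5 tested ligands, Gdf15, a stress-induced relative of TGF-beta, had 117, 162 and 105 FPKM in YOD1 libraries, against 80.4, 60.3 and 67.9 FPKM in controls (log2 fold change 0.86, limma adjusted p = 0.0771). Its groups did not overlap. Without YOD1 library 3, where limma called 1.15% of all genes and 0.932% as higher, Gdf15 passed (0.99, limma adjusted p = 0.0363). With any other library left out its adjusted p lay between 0.0925 and 0.283, with 0.68 as the lowest log2 fold change, without YOD1 library 2. Gdf11, a relative of myostatin, was at -0.44 and Bmp8b at 0.30 (limma adjusted p = 0.166 and 0.317). Among 5 tested receptors, Acvr1b, an activin type I receptor, had 19.0, 21.1 and 16.6 FPKM in YOD1 libraries, against 25.5, 27.7 and 24.3 FPKM in controls (log2 fold change -0.43, limma adjusted p = 0.141). The BMP co-receptor Rgmb and the activin receptor Acvr2a were at -0.22 and -0.19 and turned above 0 after length and GC correction (0.02 and 0.10).

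Among 10 tested extracellular regulators, 4 were above and 6 below 0, against 36.4% of all tested genes above 0. Twsg1, which modulates BMP binding to chordin, was at -0.57, Furin, a protease that processes TGF-beta precursors, at -0.23 and Htra1, a secreted protease, at 0.28, with limma adjusted p from 0.205 to 0.378. Without YOD1 library 3 Twsg1 was at -0.31, without control library 2 Furin was at -0.12, and Htra1 was at 0.14 without control library 1 and 0.50 without control library 3. Among 29 tested Smad partners and regulators, 7 were above 0 (24.1%, against 36.4% of all tested genes) and 22 below. Their median was -0.15, which was 0.04 after length and GC correction. The salt-inducible kinase gene Sik1, the acetyltransferase gene Ep300 and Tgfbrap1, a TGF-beta receptor associated protein gene, were at -0.48, -0.74 and -0.45. Their limma adjusted p lay between 0.134 and 0.19, and Ep300 was at -0.40 without YOD1 library 3.

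**Figure D5:**
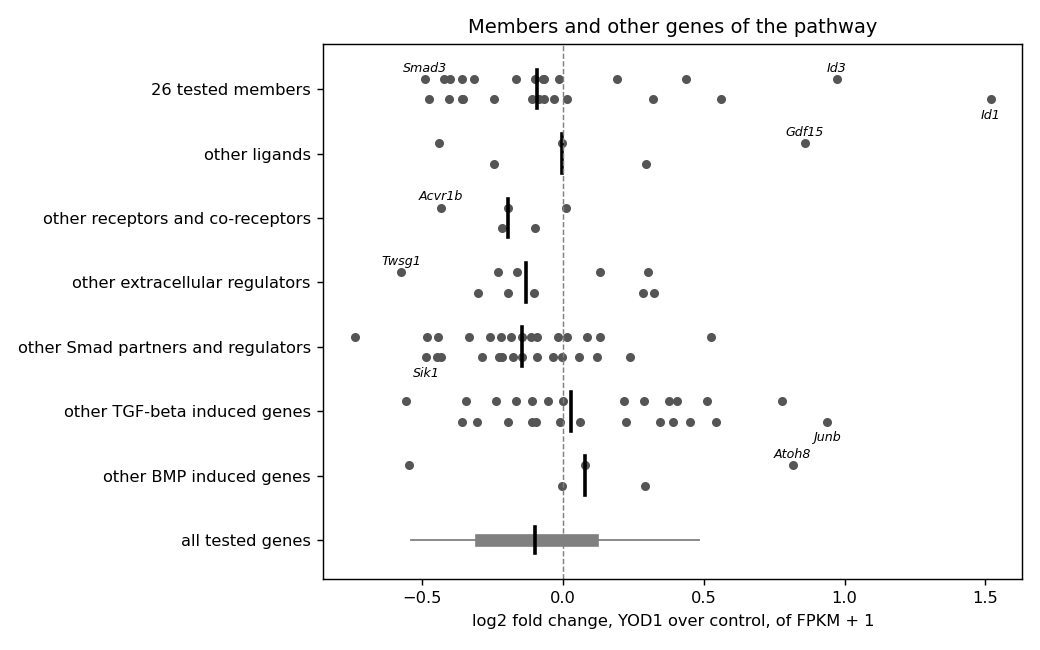
Log2 fold change (YOD1 over control, FPKM + 1) of the tested members and of the tested genes of 6 other lists, 1 point per gene, with black lines at medians and italic names at single genes. The lowest row gives the middle 50% (thick) and middle 90% (thin) of all 11483 tested genes, whose median is -0.10.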

How the data were processed

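RNA was measured by paired-end RNA-seq after poly(A) selection, per the labels' protocols, in 3 YOD1 and 3 control libraries. Bowtie 0.12.2, StringTie 1.3.0, HISAT2 2.0 and build mm8 appear in the submitters' processing notes, without roles. The authors deposited FPKM per gene and library, and per the file headers a fold ratio, its log2, a p-value and a q-value. The number of reads is not given, so depth is known only relative to control library 1.

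The members and lists were chosen with earlier results of these data known. Genes at 1 FPKM or more in at least 3 libraries were tested with limma 3.58.1 (R 4.3.3) on log2(FPKM + 1) with an intensity trend, after a check of the same code on simulated data. Each group has 3 samples, so an exact permutation test cannot go below p = 0.1 and was not used. Values per library are given for up to 4 tested members of each role, those of lowest p, and the 3 tested genes of lowest p in each list are named. Ltbp2 and Tgfbi, under the filter, were added after their values were seen, as were the list genes that have values per library. Same-numbered replicates were not treated as pairs. Transcript length and GC content came from the longest GENCODE M21 transcript (GRCm38) and were found for 99.2% of tested genes. The correction for them was added after the data were seen. Promoters came from RefSeq. Figures and tables used Python 3.11.15, numpy 2.4.6, pandas 2.3.3 and matplotlib 3.10.9.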

Additional observations from a re-analysis of the deposited data

How the results depend on the processing

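Over all genes, limma called 51 genes higher and 4 lower. The counts were 0 and 0 with no filter on low values (3427 genes at an unadjusted p under 0.05), 33 and 8 with the replicate block, 142 and 9 with median-ratio scaling, and 26 and 7 with length and GC correction. Leaving out 1 library gave 17 to 145 higher and 1 to 97 lower, with the highest counts without control library 3. The labels state no pairing of the replicate numbers. Same-numbered deviations correlated at 0.296, -0.121 and -0.112, and not every library correlated best with its own number. With deviations from means of few libraries, these values cannot settle whether the samples were paired. Calls among members stayed at 0, except 2 without control library 3 (Id1 and Id3, range 0 to 2). Calls among the other pathway genes were 0, except 2 with median-ratio scaling (Gdf15 and Junb), 2 without YOD1 library 3 (107 higher and 25 lower over all genes) and 3 without control library 3 (range 0 to 3). Of the 26 tested members, 17 kept their sign in every alternative that tested them, which was 13 for 9 of them and 12 for 8 that the 5 FPKM filter removed. Median-ratio scaling, which moved the median of all genes to -0.02, turned Tgfb1 (0.0030), Ltbp4 (0.0090), Smad1 (0.0095), Smad4 (0.021), Smad9 (0.054) and Smurf1 (0.059) above 0. Length and GC correction turned Smad1 (0.042), Smad4 (0.031), Smad9 (0.21), Smurf1 (0.17), Ski (0.10), Rgmb (0.022) and Acvr2a (0.10) above 0. With 1 library left out, log2 fold changes ranged from -0.20 to 0.025 for Tgfb1, -0.18 to 0.0069 for Ltbp4, -0.10 to 0.15 for Tgfbr2, -0.25 to 0.029 for Acvr1, -0.23 to 0.087 for Smad1, -0.17 to 0.093 for Smad4, -0.15 to 0.26 for Smad9, -0.067 to 0.017 for Smurf1 and -0.26 to 0.083 for Ski. The cause was not tested.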
